A study of Mus musculus with 141 samples.

Results

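Collagen genes were measured in 3 organs (liver, lung, kidney) of mice from 47 Collaborative Cross strains, which are recombinant inbred lines that descend from a shared set of founders. They were taken as every gene whose symbol begins with Col, a type number, the letter a and a chain number, which gave 45 of the 24423 genes of each file. Of these, 44 encode collagen chains. The remaining gene, Col4a3bp, encodes the ceramide transfer protein, matches by its name alone and is given apart. The groups were 3 tissues of 47 libraries each, 141 in all, and each strain was represented by 1 male aged 8 to 12 weeks that gave all 3 tissues. Every mouse, whatever the tissue, had spent 6 hours a day on weekdays in a chamber supplied with clean air over 2 weeks, and all were fed the same wafer diet (NTP) under 12 hours of light. There was no treated group. With 1 mouse per strain, strain and individual mouse cannot be told apart, and RNA came from whole tissue, so a lower level may reflect fewer cells of a type or less RNA per cell, which cannot be told apart either.

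Collagens are matrix proteins, most of them secreted, in which 3 chains wind into a triple helix, and the chains of 1 molecule are often encoded by different genes. Fibrillar collagens (types I, III and V among them) form the tension-bearing fibrils of connective tissue and are made mainly by fibroblasts, pericytes and smooth muscle. Type IV collagen forms the sheet-like network of basement membranes, with a widespread form made of the chains of Col4a1 and Col4a2 and a form of the glomerulus and alveolus made of the chains of Col4a3, Col4a4 and Col4a5. Type VI forms beaded filaments, the fibril-associated collagens (FACIT) sit on the surface of fibrils, the multiplexins (types XV and XVIII) lie next to basement membranes, and others are short-chain network formers or cross the plasma membrane.

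Levels are given for 1 gene across tissues as CPM, the counts relative to library size scaled by TMM, a normalisation for library composition, and between genes as TPM with the same scaling, which also corrects for transcript length. The depth of the libraries ranged from 1738046 to 42158454 counts in liver, from 2829104 to 17585682 in lung and from 3046695 to 15028553 in kidney. The 45S ribosomal precursor Rn45s took up to 69.0% of the counts of a liver, 71.7% of a lung and 63.1% of a kidney library. A total of 3 counts, taken as the floor of detection, corresponds to 0.544 CPM in the median liver, 0.220 in the median lung and 0.352 in the median kidney, and this floor covers counting error only. Of the 44 chains, 13, with Col4a1, Col4a5, Col6a3, Col6a6, Col13a1 and Col18a1 among them, are listed with more than 1 transcript. The authors state that uniquely aligned reads were quantified, and such genes can hold few counts: Col4a1 had a median of 2 counts in liver, 48 in lung and 17 in kidney, against 226, 5513 and 1462 for its partner Col4a2. How reads shared by transcripts of a gene were handled is not given in the sources used here. Its part in these levels, and in their differences between tissues, was not tested. A level of these 13 genes against other genes is therefore uncertain.

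The defining markers of each tissue went with its label. The summed CPM of Alb, Apoa1 and Ttr had a median of 86840 in liver and of 49.6 in lung and 150.5 in kidney. That of Sftpc, Sftpb and Scgb1a1 had a median of 8945 in lung against 19.1 in liver and 8.83 in kidney, and that of Kap, Slc34a1 and Lrp2 25710 in kidney against 37.9 in liver and 210.4 in lung.

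Lung held the most collagen transcripts, kidney fewer and liver the fewest, and the mixture of classes differed between the organs. The summed level of the 44 chains was 342.9 CPM in the lowest liver, 572.2 in the median and 1724 in the highest. In lung it was 1629, 2474 and 4011 CPM, and in kidney 1077, 1403 and 2507 CPM. The lowest lung lay below the highest liver and kidney, so the ranges met at their ends while the medians were ordered lung, kidney, liver. As a share of the collagen TPM of a library, basement membrane chains made up 57.7% ± 7.96 (SD, n = 47) in kidney, 29.5% ± 5.42 in lung and 8.11% ± 2.86 in liver. Fibrillar chains made up 39.2% ± 6.74 in lung, 33.1% ± 12.6 in liver and 23.1% ± 5.73 in kidney. Beaded filament chains reached 19.1% ± 3.03 in lung, against 5.58% ± 2.56 in liver and 5.50% ± 1.99 in kidney. The multiplexins held 32.8% ± 7.69 in liver and 1.08% ± 0.581 in lung and 1.89% ± 0.689 in kidney, and FACIT chains 18.4% ± 5.01, 5.44% ± 1.09 and 8.88% ± 2.48 in liver, lung and kidney. Most of the multiplexin share of liver came from Col18a1, at a mean of 81.5 TPM against 4.15 TPM for Col15a1, and Col18a1 is 1 of the genes with more than 1 listed transcript. So are Col4a1 and Col4a5 of the basement membrane class. Col4a1 had a mean of 3.89 CPM in lung and 2.10 in kidney, against 448.9 and 178.6 for its partner Col4a2. The basement membrane shares, and their order against other classes within an organ, are therefore uncertain too.

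**Figure D1:**
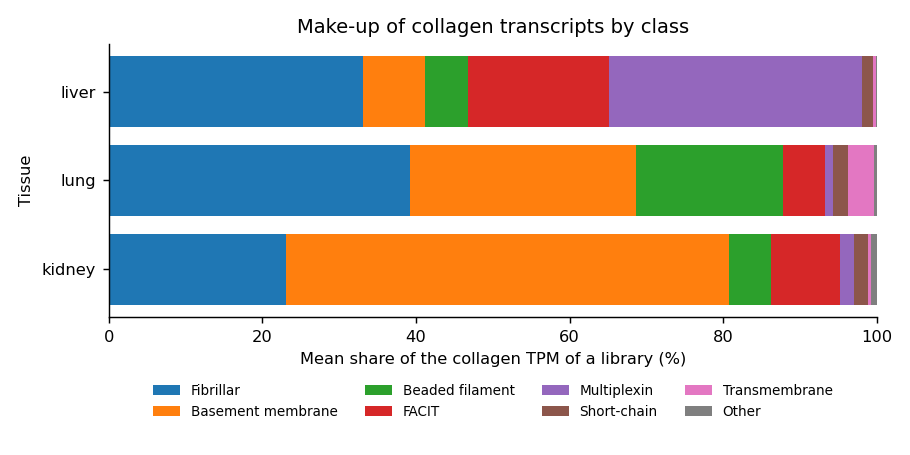
Stacked bars give, for each tissue, the mean share over 47 libraries of each collagen class in the summed TPM of all 44 chains, in percent. Basement membrane chains take 57.7% in kidney, fibrillar chains 39.2% in lung, and multiplexins 32.8% in liver.

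The 5 chains with the highest mean TPM were Col18a1, Col14a1, Col5a2, Col3a1 and Col27a1 in liver, Col3a1, Col4a2, Col1a2, Col6a1 and Col4a3 in lung, and Col4a3, Col4a4, Col4a2, Col27a1 and Col3a1 in kidney. Only Col3a1 was in all 3 lists. Its median was 21.7 TPM in liver, 195.7 in lung and 23.8 in kidney, and the median of Col4a3 was 1.25, 90.7 and 145.5 TPM. In liver the mean of Col5a2 came from few mice: its median was 5.11 TPM and its highest value 420.1 TPM.

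**Figure D2:**
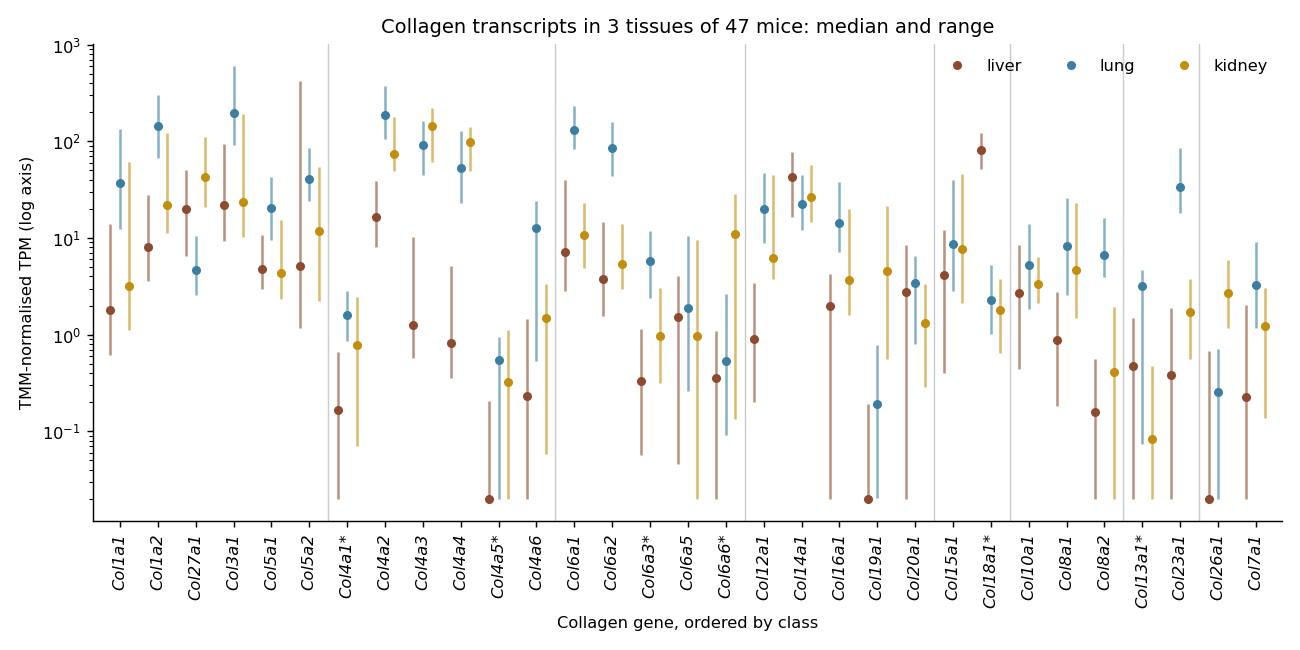
Points are the median and lines the range over 47 mice of the TPM of each of the 31 tested chains in liver, lung and kidney, on a log axis, with values under 0.02 drawn at 0.02, classes parted by grey lines and asterisks on genes with more than 1 listed transcript. Col4a3 and Col4a4 have medians of 1.25 and 0.829 TPM in liver against 145.5 and 97.5 TPM in kidney, and the range of Col5a2 in liver reaches 420.1 TPM.

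Which organ expressed which chain was tested in all 3 tissue comparisons, with the strain as a block and a gene was called at q of at most 0.1 and a log2 fold change of 1 or more in size. Of the 44 chains, 31 passed the filter on low counts. Against lung, liver was called lower for 25 chains and higher for 2, Col18a1 and Col27a1, and 4 were not called. Of all 12127 genes tested, 54.9% were called in this comparison, 31.2% higher in lung and 23.7% higher in liver. The median log2 fold change of liver against lung was -3.18 over the 31 chains and -0.07 over all genes. Where 50% of libraries had to exceed 1 CPM, 26 chains passed. Of these, liver was called lower than lung for 20 and higher for 2, with medians of -3.22 over the chains and 0.05 over all genes. Liver was called lower than kidney for 14 of the 26 and higher for 2, and lung higher than kidney for 16 and lower for 2. The medians were -1.18 and 1.38 over the chains and -0.05 and -0.10 over all genes. The share of all genes called under this stricter filter is not given. With the first filter, liver was called lower than kidney for 18 chains and higher for 3, Col13a1, Col18a1 and Col20a1, where 36.6% of all genes were called, 22.0% higher in kidney and 14.7% higher in liver. The median was -1.25 over the chains and -0.07 over all genes. Lung was called higher than kidney for 18 chains and lower for 4, Col6a6, Col19a1, Col26a1 and Col27a1, where 46.3% of all genes were called, 24.6% higher in lung and 21.7% higher in kidney, with medians of 1.34 and -0.02. Among the 25 tested chains with 1 listed transcript, liver was called lower than lung for 21 and higher for 1, lower than kidney for 14 and higher for 1, and lung was called higher than kidney for 15 and lower for 3. The 3 comparisons share libraries. Scaling by total counts without TMM moves the median of all genes by -1.37, -0.88 and 0.48 in the 3 comparisons, and in 4 of 5 other scalings Col14a1 has the other sign in all 3 and Col5a1, Col5a2 and Col6a5 between liver and kidney, none of which was called there.

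**Figure D3:**
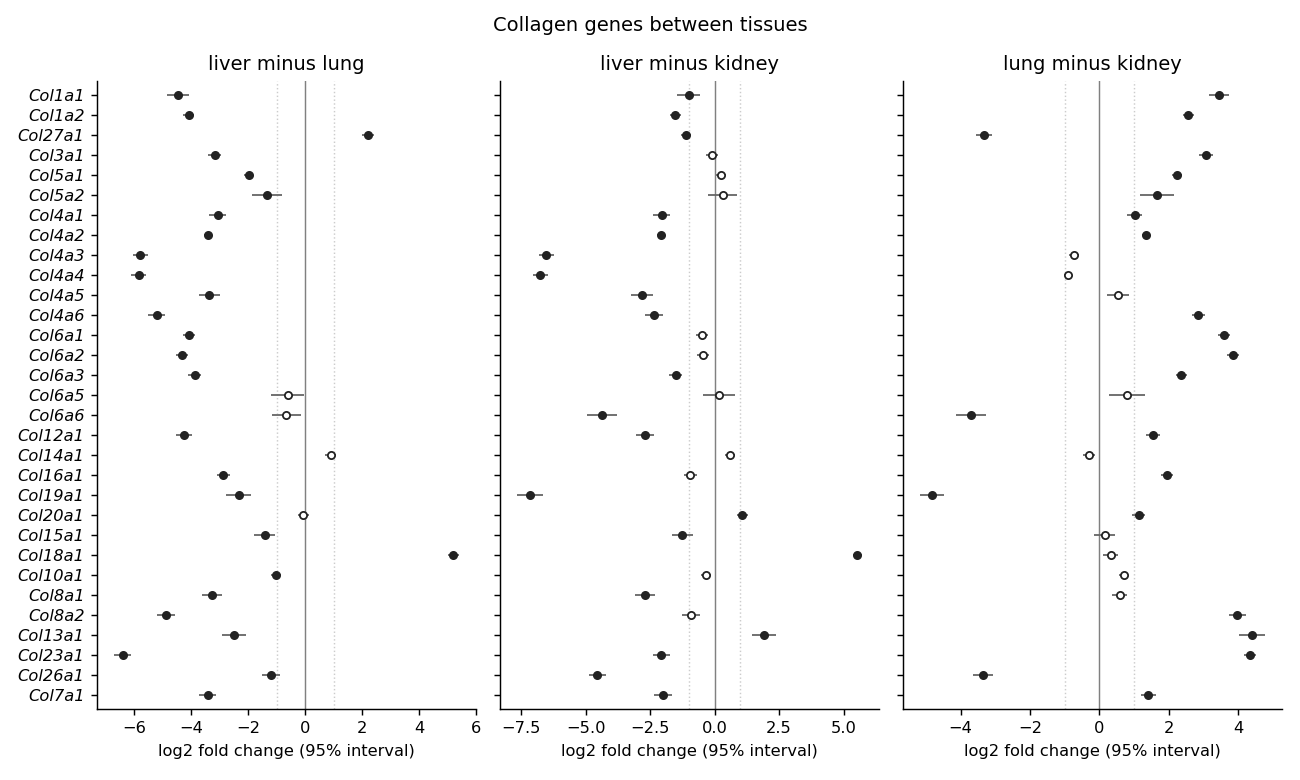
Each row is a tested chain and each panel a comparison, with the log2 fold change of the first tissue minus the second, its 95% interval as a line, filled points for chains called and open points for others, and dotted lines at 1 and -1. Most points of liver minus lung lie far left of 0, with Col18a1 at 5.20 and Col27a1 at 2.21 to the right.

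Among the fibrillar chains, 6 of 11 were tested, and the type I and type III genes were highest in lung in nearly every mouse. Col1a1, which encodes the main chain of type I collagen, had 1.39 CPM in the lowest, 4.01 in the median and 32.8 in the highest liver, 25.6, 79.4 and 268.5 in lung, and 2.33, 6.93 and 142.1 in kidney. The range of liver met that of lung only at its end, and 1 kidney lay far above the others. The log2 fold change was -4.45 ± 0.197 (SE; q = 6.1e-40) for liver against lung, with the same direction in 47 of 47 mice, and 3.45 ± 0.147 (q = 3.6e-41) for lung against kidney, in 46 of 47. Between liver and kidney it was -1.0 ± 0.224 (q = 3.2e-05), in 38 of 47 mice. That call sits on the fold threshold and is lost without the strain CC020, at -0.89, with edgeR, at -0.90, and with DESeq2, at -0.94.

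Col1a2, the second chain of type I collagen, had 6.91, 15.8 and 56.6 CPM in the lowest, median and highest liver, 122.4, 260.0 and 564.4 in lung, and 21.9, 39.7 and 244.7 in kidney. Liver and lung did not overlap, at -4.08 ± 0.103 (q = 7.6e-61). Liver lay below kidney by -1.52 ± 0.115 (q = 4.8e-23), and lung above kidney by 2.57 ± 0.0849 (q = 2.0e-50). Col3a1, which forms type III fibrils of compliant tissue, had 19.6, 45.1 and 204.5 CPM in liver, 179.4, 382.5 and 1222 in lung, and 22.0, 48.9 and 418.3 in kidney. Lung was above both organs, at -3.18 ± 0.111 (q = 2.2e-48) for liver against lung and 3.07 ± 0.102 (q = 3.3e-50) for lung against kidney. Liver and kidney differed by -0.11 ± 0.119 (q = 0.39), with the same direction in 27 of 47 mice, and were not called.

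In the comparisons with lung, Col27a1 went the other way from the rest of its class. It encodes a fibrillar chain best known from cartilage. As for Col1a1 and Col1a2, liver was called lower than kidney, by -1.11 ± 0.106 (q = 3.3e-17) for Col27a1, in 42 of 47 mice. Its lowest, median and highest values were 19.3, 59.0 and 137.1 CPM in liver, 6.99, 12.7 and 27.2 in lung, and 57.9, 117.1 and 291.7 in kidney, so that lung and kidney did not overlap. Lung was below kidney by -3.31 ± 0.115 (q = 1.3e-48) and below liver in all 47 mice, by 2.21 ± 0.111 (q = 1.2e-35) for liver against lung, a call that falls under the fold threshold with total counts, at 0.80, and on the log2(TPM + 1) and log2(TPM + 0.1) scales, at 0.61 and 0.66. Col5a2, a chain of the type V collagen that is built into type I fibrils, was lower in liver than in lung by -1.35 ± 0.268 on the log2 scale (q = 2.6e-06), in 39 of 47 mice, a call lost without the filter on low counts, at -0.92, although the mean was 98.3 CPM in liver and 97.0 in lung. The highest livers lay far above every lung. Col5a1, the other tested chain of type V, was called higher in lung than in liver, and higher in lung than in kidney.

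All 6 type IV genes were tested, and all 6 were called lower in liver than in lung and than in kidney. The largest differences were those of the chains of glomerular and alveolar basement membrane. Col4a3 had 1.83 CPM in the lowest, 4.06 in the median and 33.2 in the highest liver, 140.9, 273.2 and 480.6 in lung, and 192.3, 467.2 and 687.5 in kidney. Col4a4 had 1.02, 2.46 and 15.8 in liver, 63.6, 148.2 and 341.3 in lung, and 138.7, 281.2 and 405.3 in kidney. For both genes the livers lay wholly below the other organs, while lung and kidney overlapped. Against kidney, liver was lower by -6.52 ± 0.152 (q = 1.4e-63) for Col4a3 and by -6.75 ± 0.153 (q = 1.9e-64) for Col4a4, and against lung by -5.79 ± 0.131 (q = 6.5e-65) and -5.85 ± 0.133 (q = 1.1e-64), in 47 of 47 mice each. Lung was lower than kidney in 43 of 47 mice for Col4a3, by -0.73 ± 0.0741, and in 45 of 47 for Col4a4, by -0.91 ± 0.0641, under the fold threshold in both cases.

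Col4a2, one of the 2 chains of the widespread network, was ordered differently, with lung above kidney. It had 19.5, 39.5 and 93.3 CPM in the lowest, median and highest liver, 248.1, 429.7 and 828.3 in lung, and 120.6, 175.4 and 447.2 in kidney. The log2 fold change was -3.41 ± 0.0713 (q = 5.0e-68) for liver against lung, -2.06 ± 0.0770 (q = 1.0e-45) for liver against kidney and 1.34 ± 0.0638 (q = 1.6e-37) for lung against kidney, each with the same direction in 47 of 47 mice. Col4a1, with few counts, was also called in all 3 comparisons, at -3.07, -2.05 and 1.02. On the log2(TPM + 1) scale the calls of liver against kidney and of lung against kidney are lost, at -0.76 and 0.94, and the latter is also lost with edgeR, at 0.97. The ratio of Col4a2 to Col4a3 in TPM had a median of 13.1 in liver, 2.07 in lung and 0.482 in kidney. It was above 1 in all 47 livers and lungs and in 4 of 47 kidneys, and the lung and kidney of a mouse differed by 2.07 ± 0.0947 on the log2 scale, in 46 of 47 mice (two-sided sign-flip permutation p = 1e-05, the smallest that 100000 permutations can give; q = 3e-05 over 18 ratio tests).

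Col4a6, which encodes a type IV chain of bronchial, smooth muscle and Bowman's capsule membranes, was highest in lung. It had 0, 0.573 and 3.62 CPM in the lowest, median and highest liver, 1.15, 29.6 and 56.7 in lung, and 0.133, 3.44 and 7.74 in kidney, with 24 of 47 livers at or under 3 counts. Lung was above kidney by 2.85 ± 0.0940 (q = 1.5e-50) and liver below lung by -5.21 ± 0.153 (q = 4.5e-55). The lowest lung and the lowest kidney were both of strain CC015, with 3 counts and 1 count, and the lung of CC015 was low for other chains too. Of the 6 lowest lungs and the 6 lowest kidneys, 5 were of the same mice. Their lungs held 1.15 CPM in CC015, 2.91 in CC020, 3.23 in CC004, 3.59 in CC028 and 11.6 in CC027, and their kidneys 0.133, 0.325, 1.16, 0.621 and 0.397 CPM in the same order. These kidney values rest on 1, 1, 3, 6 and 1 counts, all but that of CC028 at or under the floor, so their order is not resolved. Over all 47 mice the lung and kidney levels were not called as correlated, at r = 0.18 (rho = 0.14; permutation q = 0.46). Col4a5, whose chain joins those of Col4a3 and Col4a4, had a median of 0 counts in liver, 16 in lung and 7 in kidney. It was called lower in liver than in either other organ, at -3.36 ± 0.195 and -2.81 ± 0.217, calls that are lost on the log2(TPM + 1) scale, at -0.91 and -0.48, and lung and kidney differed by 0.55 ± 0.160, which was not called.

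The type IV genes lie in pairs, head to head on opposite strands. In NCBIM37, the build named by the authors, Col4a1 is at chr8:11198423-11312826 on the minus strand and Col4a2 at chr8:11312805-11449287 on the plus strand, so that their 5′ ends overlap by 22 bases in GENCODE vM1. The 5′ ends of Col4a4 (chr1:82447298-82583424, minus strand) and Col4a3 (chr1:82583496-82718634, plus strand) are 71 bases apart, and those of Col4a6 (chrX:137599946-137908619, minus strand) and Col4a5 (chrX:137909928-138123778, plus strand) 1308 bases apart. Promoter windows of 250 bases before and 50 after the start site were taken from a RefSeq table on GRCm38.p6, which holds 35 of the 45 genes, and are shown because the levels of these genes are compared in pairs. Capitals mark matches on either strand to TATAA, the core of a box found before many start sites, to the box CCAAT that is bound by the NF-Y factor, and to the motif GGGCGG that is bound by Sp1. No matches overlap here. Col1a2 is the only fibrillar gene shown, and no window was available for its partner Col1a1 or for Col4a3, the partner of Col4a4.
Col4a1, chr8:11312777-11313076, minus strand: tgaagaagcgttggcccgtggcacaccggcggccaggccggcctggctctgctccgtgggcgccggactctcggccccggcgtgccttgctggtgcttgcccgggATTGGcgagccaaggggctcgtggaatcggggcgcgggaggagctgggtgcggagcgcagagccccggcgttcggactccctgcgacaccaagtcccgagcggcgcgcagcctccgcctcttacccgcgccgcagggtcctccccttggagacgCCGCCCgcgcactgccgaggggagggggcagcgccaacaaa
Col4a2, chr8:11312555-11312854, plus strand: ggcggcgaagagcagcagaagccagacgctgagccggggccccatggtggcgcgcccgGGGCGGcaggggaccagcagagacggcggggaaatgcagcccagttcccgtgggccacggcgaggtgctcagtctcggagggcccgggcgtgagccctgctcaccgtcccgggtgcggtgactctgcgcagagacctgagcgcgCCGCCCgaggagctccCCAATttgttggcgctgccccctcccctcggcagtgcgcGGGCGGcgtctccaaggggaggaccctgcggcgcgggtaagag
Col4a4, chr1:82586800-82587099, minus strand: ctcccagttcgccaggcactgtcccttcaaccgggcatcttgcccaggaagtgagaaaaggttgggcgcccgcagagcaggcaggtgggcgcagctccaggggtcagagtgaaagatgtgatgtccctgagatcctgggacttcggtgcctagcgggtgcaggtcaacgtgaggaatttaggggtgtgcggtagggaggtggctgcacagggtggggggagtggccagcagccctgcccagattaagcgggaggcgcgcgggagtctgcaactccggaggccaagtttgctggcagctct
Col1a2, chr6:4505368-4505667, plus strand: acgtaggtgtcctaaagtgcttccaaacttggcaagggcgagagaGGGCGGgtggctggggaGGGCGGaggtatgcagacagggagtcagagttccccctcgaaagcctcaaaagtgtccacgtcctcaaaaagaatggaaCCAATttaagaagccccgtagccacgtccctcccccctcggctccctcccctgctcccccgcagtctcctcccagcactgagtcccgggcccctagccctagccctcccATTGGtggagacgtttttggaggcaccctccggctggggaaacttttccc
Among all 32817 promoters of the table, 24.9% held TATAA, 37.4% CCAAT and 35.6% GGGCGG. None of the 4 windows held TATAA. Those of Col4a1, Col4a2 and Col1a2 held both other motifs, with 1, 3 and 2 copies of GGGCGG, and the window of Col4a4 held none of the 3. The windows of Col4a1 and Col4a2 share 78 bases (chr8:11312777-11312854). The single GGGCGG of Col4a1 lies in them and is the same site as 1 of the 3 counted for Col4a2. The GC content was 74.0% for Col4a1 and 73.7% for Col4a2, against 63.3% for Col4a4, 61.0% for Col1a2 and a median of 52.7% over all promoters. These are matches of letters and not sites of binding.

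Of the type VI genes, whose chains build the microfibrils around cells, 5 of 6 were tested, and the 3 classical ones were highest in lung. Col6a1 had 4.44, 10.4 and 59.5 CPM in the lowest, median and highest liver, 114.6, 184.1 and 330.6 in lung, and 7.43, 15.3 and 32.8 in kidney. Col6a2 had 2.32, 5.37 and 20.2 in liver, 57.3, 111.4 and 206.8 in lung, and 3.96, 7.33 and 17.8 in kidney. In both, lung did not overlap either other organ, while liver and kidney overlapped widely. Liver against lung was -4.07 ± 0.104 (q = 3.8e-60) for Col6a1 and -4.31 ± 0.110 (q = 2.5e-60) for Col6a2, and lung against kidney 3.60 ± 0.0867 (q = 1.9e-62) and 3.86 ± 0.0865 (q = 2.9e-65). Liver against kidney was -0.47 and -0.45, below the fold threshold, and passes it with total counts at -1.31 and -1.34. Col6a3, the largest chain of type VI, was called in all 3 comparisons, at -3.88, -1.51 and 2.37, of which liver against kidney is lost on the log2(TPM + 1) scale, at -0.80.

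Col6a6, a further type VI chain, was the one with its highest level in kidney. It had 0, 0.927 and 3.11 CPM in the lowest, median and highest liver, 0.223, 1.32 and 6.68 in lung, and 0.370, 27.7 and 71.8 in kidney. That highest liver, of CC033, held 2 counts and so lay under the floor of 3 counts. Kidney was higher than lung in 44 of 47 mice, by -3.70 ± 0.216 (lung against kidney; q = 1.3e-30), and than liver in 43 of 47, by -4.36 ± 0.293 (q = 2.9e-26), but the ranges overlapped because some kidneys were as low as lung. Col6a5 had medians of 5.15, 6.23 and 3.57 CPM in liver, lung and kidney and was called in no comparison.

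Of the 5 tested FACIT chains, 3 were called higher in lung and 1 higher in kidney when these organs were compared. Col14a1, which binds fibril surfaces, had 38.4, 100.5 and 186.5 CPM in the lowest, median and highest liver, 26.1, 49.9 and 101.8 in lung, and 35.8, 62.8 and 129.2 in kidney. Its ranges overlapped throughout and it was called in none of the comparisons. Col19a1, another FACIT chain, was highest in kidney. It had 2.32, 16.8 and 85.4 CPM in the lowest, median and highest kidney and 0.0743, 0.696 and 2.91 in lung, and 15 of 47 livers held a count, at most 4. Lung was lower than kidney by -4.82 ± 0.172 (q = 1.3e-47) in 47 of 47 mice, and liver by -7.14 ± 0.254, where 45 of 47 livers were at or under 3 counts, so that the size of this fold depends on how counts of 0 are treated. Col12a1 and Col16a1 were called higher in lung than in both other organs. Col20a1 had medians of 4.17, 4.97 and 2.07 CPM in liver, lung and kidney. It was higher in liver than in kidney by 1.07 ± 0.108 (q = 5.9e-16) and in lung than in kidney by 1.13 ± 0.0963 (q = 4.6e-20), and the first of these falls to 0.13 with total counts, to 0.10 and 0.11 on the log2(TPM + 1) and log2(TPM + 0.1) scales and to 0.93 without the block.

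Both multiplexins were tested. Col18a1, whose chain lies in basement membranes and gives rise to endostatin, had the largest differences in favour of liver among the 31 tested chains. It had 106.4, 170.7 and 252.9 CPM in the lowest, median and highest liver, 2.17, 4.64 and 10.3 in lung, and 1.21, 3.51 and 8.11 in kidney. Liver did not overlap the others, at 5.20 ± 0.103 (q = 3.4e-70) against lung and 5.54 ± 0.0938 (q = 9.2e-76) against kidney, in 47 of 47 mice each. Lung and kidney differed by 0.34 ± 0.110, below the fold threshold. Col18a1 is listed with 2 transcripts, and the part of reads shared by transcripts in these differences was not tested. Col15a1 had 0.803, 8.18 and 24.4 CPM in liver, 5.24, 16.1 and 74.3 in lung, and 4.02, 14.9 and 94.1 in kidney, and was called lower in liver, at -1.41 ± 0.188 (q = 4.5e-11) against lung and -1.25 ± 0.210 (q = 6.8e-08) against kidney.

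Both tested transmembrane collagens were called higher in lung than in the other organs. Col23a1 had 0, 0.789 and 3.99 CPM in the lowest, median and highest liver, 35.3, 68.3 and 176.8 in lung, and 1.18, 3.45 and 7.30 in kidney. Lung did not overlap the others and was higher in 47 of 47 mice, at -6.41 ± 0.148 (q = 3.1e-64) for liver against lung and 4.34 ± 0.0922 (q = 2.5e-67) for lung against kidney. Col13a1 had medians of 0.573, 3.59 and 0.0963 CPM in liver, lung and kidney, with 28 livers and 43 kidneys at or under 3 counts. It was called in all comparisons, at -2.50 ± 0.215, 1.91 ± 0.233 and 4.41 ± 0.191, of which liver against kidney rests on counts near the floor and falls to 0.90 on the log2(TPM + 0.1) scale and to 0.24 on the log2(TPM + 1) scale. Of the short-chain genes, Col8a2 was higher in lung than in kidney by 3.98 ± 0.122 (q = 2.4e-53), with medians of 0.263, 10.5 and 0.654 CPM. Col26a1 had 1.14, 2.65 and 6.17 CPM in the lowest, median and highest kidney and lay above lung by a log2 of -3.34 ± 0.146 (lung against kidney; q = 1.8e-40) in 47 of 47 mice. All livers held at most 3 counts of Col26a1 and the median lung 3. Col26a1 is among the chains called lower in liver than in lung, but at such counts no fold is given. Col10a1 was called lower in liver than in lung and Col8a1 lower in liver than in both other organs, as was Col7a1, the chain of anchoring fibrils, which was also called higher in lung than in kidney.

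The 13 chains under the filter were Col2a1, Col5a3, Col6a4, Col9a1, Col9a2, Col9a3, Col11a1, Col11a2, Col17a1, Col22a1, Col24a1, Col25a1 and Col28a1. Their highest median was 0.919 CPM, that of Col28a1 in lung. Col2a1, the main fibrillar chain of cartilage, was at 0 counts in all 47 livers, had at most 2 counts in lung and at most 1 in kidney. Col5a3 and Col9a1 were also at 0 in all livers. The ceramide transfer protein gene Col4a3bp had medians of 1.09, 1.42 and 1.41 CPM in liver, lung and kidney and was called in no comparison.

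Genes whose products fold, cleave, crosslink, bind or take up collagens were tested in the same way. Of 68 partner genes listed, 51 were tested. Liver was called lower than lung for 38 and higher for 3, lower than kidney for 22 and higher for 9, and lung was called higher than kidney for 33 and lower for 3, with median log2 fold changes of -2.33, -0.70 and 1.49. These counts, and those of the single lists, stand beside the shares of all genes: 31.2% were called higher in lung and 23.7% higher in liver when these were compared, 22.0% higher in kidney and 14.7% higher in liver, and 24.6% higher in lung and 21.7% higher in kidney. Scaling by total counts leaves fewer partner genes called higher in liver than in kidney, and their share of those called goes from 29.0% to 13.2%. In the folding and modification list, liver was called lower than lung for 9 of 15 and higher for 2, and lower than kidney for 8 and higher for 3. Lung was called higher than kidney for 4 of these 15 and lower for 2, and 9 were not called. P3h2, a prolyl 3-hydroxylase, was highest in kidney, with means of 1.30, 7.29 and 74.4 CPM in liver, lung and kidney and log2 fold changes of -5.82 ± 0.144 (liver against kidney) and -3.37 ± 0.0715 (lung against kidney). P3h4, which takes part in lysine hydroxylation, was higher in lung than in liver and kidney, by -3.52 ± 0.123 and 2.03 ± 0.0879, the transcription factor gene Creb3l1 higher in lung than in liver by -3.18 ± 0.230, and the lysyl hydroxylase gene Plod2 lower in liver than in kidney by -2.79 ± 0.186 at mean levels of 0.0370 and 0.853 CPM, a call that is lost on the log2(TPM + 1) scale, at -0.72.

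Of the cleavage and crosslinking list, 9 of 10 tested were called higher in lung than in liver, and 9 of 10 higher in lung than in kidney. Against kidney, liver was called lower for 4 of them and higher for 1. Pcolce2, an enhancer of procollagen C-proteinase, had means of 2.45, 153.4 and 2.35 CPM in liver, lung and kidney, at -6.16 ± 0.156 for liver against lung and 6.15 ± 0.123 for lung against kidney. The C-proteinase gene Tll1 was lower in liver by -5.24 ± 0.162 against lung and -4.09 ± 0.187 against kidney, its relative Bmp1 higher in liver than in kidney by 3.57 ± 0.147, and the N-proteinase gene Adamts2 higher in lung than in kidney by 2.97 ± 0.0823. Of the fibril-binding list, 7 of 10 were called higher in lung than in liver and 9 of 10 higher in lung than in kidney, and liver was called higher than kidney for 4 and lower for 2. Ogn, the small proteoglycan osteoglycin, had means of 4.11, 302.8 and 25.7 CPM in liver, lung and kidney, at -6.24 ± 0.101, -2.71 ± 0.116 and 3.53 ± 0.0614 in the 3 comparisons. Dpt (dermatopontin) was higher in lung, at -3.76 ± 0.137 and 4.36 ± 0.116 against liver and kidney, and Fn1 (fibronectin), listed with 7 transcripts and at means of only 2.48 and 0.0914 CPM, higher in liver than in kidney by 4.25 ± 0.185, which falls to 0.50 on the log2(TPM + 1) scale, where the call is lost.

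All 4 basement membrane partners were tested, and 3 were called lower in liver than in lung, 3 lower in liver than in kidney and 1 higher in lung than in kidney. Hspg2 (perlecan) had means of 55.8, 283.8 and 79.3 CPM and Agrn (agrin) 53.5, 248.0 and 142.0 CPM in liver, lung and kidney, at -2.34 ± 0.0911 and -2.22 ± 0.0518 for liver against lung. Against kidney, liver was lower for Agrn by -1.41 ± 0.0549 and for Nid2 (nidogen 2) by -1.28 ± 0.0860, and Hspg2 was higher in lung than in kidney by 1.85 ± 0.0847. Of the receptors, uptake and breakdown list, liver was called lower than lung for 10 of 12, lower than kidney for 5 and higher for 1, and lung was called higher than kidney for 10 and lower for 1. The collagen-binding integrin gene Itga2 was higher in lung, at -5.71 ± 0.177 against liver and 3.91 ± 0.119 against kidney, and the collagen endocytic receptor gene Mrc2 lower in liver, at -5.06 ± 0.125 against lung and -3.38 ± 0.144 against kidney. Timp3, an inhibitor of matrix metalloproteinases, was lower in liver than in kidney by -5.26 ± 0.0824, with means of 57.3 and 2121 CPM, and Mmp9 higher in lung than in kidney by 3.99 ± 0.176.

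Levels of the collagen chains varied more between mice than those of most genes. The biological coefficient of variation, the spread between mice beyond counting error, had a median of 45.1% over 22 chains in liver, 33.5% over 34 in lung and 38.0% over 30 in kidney, against 24.9%, 23.8% and 23.3% over all genes measured there. In liver 21 of 22 chains lay above the median of all genes, in lung 31 of 34 and in kidney 29 of 30. These are descriptions across genes, which are not independent. The least variable was Col18a1 in liver, at 19.6%.

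Col5a2 in liver spread most, with 2.86 CPM in the lowest, 13.3 in the median and 1046 in the highest mouse. The highest was CC017 with 1046 CPM, followed by CC024 with 773.8, CC015 with 688.8, CC019 with 402.7, CC057 with 335.8 and CC053 with 232.0. In kidney it ran from 5.34 through 28.4 to 126.7 CPM, highest in CC024 with 126.7 and CC053 with 124.5, and in lung only from 53.6 through 94.3 to 202.7 CPM. Of the 6 highest livers and the 6 highest kidneys, 4 were of the same mice, CC015, CC017, CC024 and CC053. The lungs of CC015 and CC024 were among the 6 lowest, with 53.6 and 65.0 CPM, and that of CC015, which held more liver-defining transcripts than all other lungs but 1, was low for several chains. In the liver of CC017 the fibroblast and pericyte markers were at 0.719 times and the stellate cell markers at 1.20 times their median.

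Col6a5 varied widely in all 3 organs, from 0.175 to 13.9 CPM in liver, from 0.870 to 34.6 in lung and from 0 to 32.4 in kidney, with a coefficient of 115.6% in kidney. Col6a6 in kidney, next to it on chromosome 9, ran from 0.370 CPM in CC002 to 71.8 in CC062, a coefficient of 102.4%. Col20a1 in liver ran from 0 to 12.9 CPM around a median of 4.17. In lung the SD of log2 CPM was 1.07 for Col4a6 and 0.888 for Col15a1.

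Some libraries stood apart over several chains at once. The kidney of CC020 was the highest of 47 for 11 of 30 chains. It held 142.1 CPM of Col1a1 where the next kidney held 26.6, 418.3 of Col3a1 where the next held 123.4, 244.7 of Col1a2, 202.8 of Col12a1 and 94.1 of Col15a1. Its smooth muscle markers (Acta2, Myh11, Cnn1) were the highest of the kidneys, at 58.1 CPM or 2.47 times the median, and its fibroblast and pericyte markers ranked 2, at 10.7 CPM or 2.16 times. Its kidney-defining markers were the lowest of 47, at 0.450 times the median, and Col4a3 ranked 46 there with 252.5 CPM. Its endothelial markers were also the lowest, at 0.681 times, and its lung-defining markers ranked 4, at 36.7 CPM or 4.15 times the median. The part of these markers in the collagen values was not tested. Without CC020, liver against kidney has 20 chains called in place of 21, and the other counts are 27 and 22 as before.

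The lung of CC049 was the highest of 47 for 7 of 34 chains, Col8a1 with 45.7 CPM and Col15a1 with 74.3 CPM among them. It also held the highest levels of 5 of the 6 chains of cartilage, with 75 counts of Col11a1 against a median of 5, and 2 counts of Col2a1, 7 of Col9a1, 19 of Col9a2 and 28 of Col9a3. The remaining one, Col11a2, ranked 5 with 0.339 CPM, where another lung held 1.39. The 6 cartilage markers, of which 5 were at or under the floor in the median lung with Lect1 and Ucma at 0, summed to 20.1 CPM there against a median of 7.96 and ranked 2, and the smooth muscle markers ranked 1, at 3.42 times the median. Its stellate cell markers also ranked 1, at 1.99 times, its fibroblast and pericyte markers ranked 3, at 1.88 times, and its alveolar type 1 markers ranked 46, at 0.687 times. The lung of CC037 was likewise the highest for 7 of 34 chains, with 268.5 CPM of Col1a1, 828.3 of Col4a2, 341.3 of Col4a4, 123.0 of Col5a1, 67.0 of Col16a1, 28.6 of Col7a1 and 27.2 of Col27a1. Its fibroblast and pericyte markers ranked 45, at 0.521 times the median, its endothelial markers 10, at 1.09 times, and its liver-defining markers were the lowest of the lungs, at 1.14 CPM. The liver of CC016 was the highest for Col1a1, Col1a2, Col3a1 and Col16a1, with 32.8, 56.6, 204.5 and 8.76 CPM, and its fibroblast and pericyte markers ranked 1, at 2.18 times the median. The liver of CC017 was also the highest for 4 of 22 chains, Col5a2, Col10a1 with 9.86 CPM, Col4a2 with 93.3 and Col5a1 with 34.4. Here too the part of the markers was not tested.

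The lung of CC015 was low over many chains. Its summed collagen level ranked 46 of 47, at 1629 CPM or 0.659 times the median lung, and it was the lowest lung for Col1a2, Col4a1, Col4a6, Col5a1, Col5a2 and Col10a1. Its alveolar type 1 markers were the lowest of 47, at 0.380 times the median, and its fibroblast and pericyte markers ranked 43, at 0.611 times. Its liver-defining markers ranked 2, at 437.6 CPM or 8.83 times the median, and its share of Rn45s, 71.7%, was the highest of the lungs. The part of these values in its collagen levels was not tested. Without CC015 the chains called number 27, 21 and 22 as before.

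Whether a mouse with a high level of a chain in 1 organ also had a high level in another was tested by correlation across the 47 mice, on rank-transformed levels, with permutation p-values adjusted over all genes. Between liver and lung 1 of 22 chains was called at q of at most 0.1 and r above 0, where 12.5% of all genes were called. Between liver and kidney 6 of 22 were called, against 21.9% of all genes, and between lung and kidney 5 of 29, against 16.3%. The median r was 0.09, 0.16 and 0.18 over the chains and 0.13, 0.18 and 0.15 over all genes. An unadjusted permutation p under 0.05 was found for 2, 7 and 7 chains. With total counts in place of TMM, 0 chains are called between liver and lung, 3 between liver and kidney and 0 between lung and kidney. The shares of all genes above hold for TMM, and those under total counts are not given. These losses can therefore not be read as particular to collagens.

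Col20a1 was the only chain called in all pairs of organs, with r = 0.68 between liver and lung (rho = 0.66; permutation q = 0.00073), r = 0.62 between liver and kidney (rho = 0.62; permutation q = 0.00048) and r = 0.68 between lung and kidney (rho = 0.71; permutation q = 0.00055). Without the 2 mice farthest from the median, r was 0.59, 0.57 and 0.68. With total counts in place of TMM, all 3 calls of Col20a1 are lost, at r = 0.10 (permutation q = 1.0), r = 0.26 (permutation q = 0.36) and r = 0.34 (permutation q = 0.30). The strains CC010, CC025 and CC036 were among the 6 lowest mice in all 3 organs, with 0.650, 1.32 and 0 CPM of Col20a1 in liver. Col5a2 was correlated between liver and kidney, at r = 0.59 (rho = 0.60; permutation q = 0.00068; 0.52 without 2 mice), and not called between lung and either, at 0.06 and 0.18. Col3a1 was correlated between lung and kidney, at r = 0.63 (rho = 0.65; permutation q = 0.00055; 0.61 without 2 mice), and between liver and kidney, at 0.40 (permutation q = 0.040). With total counts both calls of Col3a1 are lost, at 0.42 (permutation q = 0.14) and 0.12 (permutation q = 0.60).

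Col6a3 was called between liver and kidney at 0.56 (permutation q = 0.0015) and between lung and kidney at 0.44 (permutation q = 0.022). Col1a2 was called between lung and kidney at 0.46 (permutation q = 0.014), Col6a6 there at 0.42 (permutation q = 0.028), and Col15a1 between liver and kidney at 0.44 (permutation q = 0.019). Col10a1 was called between liver and kidney at 0.36 (permutation q = 0.068) with r of 0.25 without 2 mice, so that it rests on those mice, and is lost without CC015, at 0.34 (permutation q = 0.10). With total counts the calls of Col1a2 and Col6a6 and that of Col6a3 between lung and kidney are lost, at 0.36, 0.28 and 0.26, as is that of Col15a1, at 0.19. The chains of the glomerular network were not called, with r of 0.11 for Col4a3 and 0.0028 for Col4a4 between liver and lung, and 0.21 and 0.26 between lung and kidney. Whether a chain correlated in 1 pair of organs differs from its value in another was not tested.

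**Figure D4:**
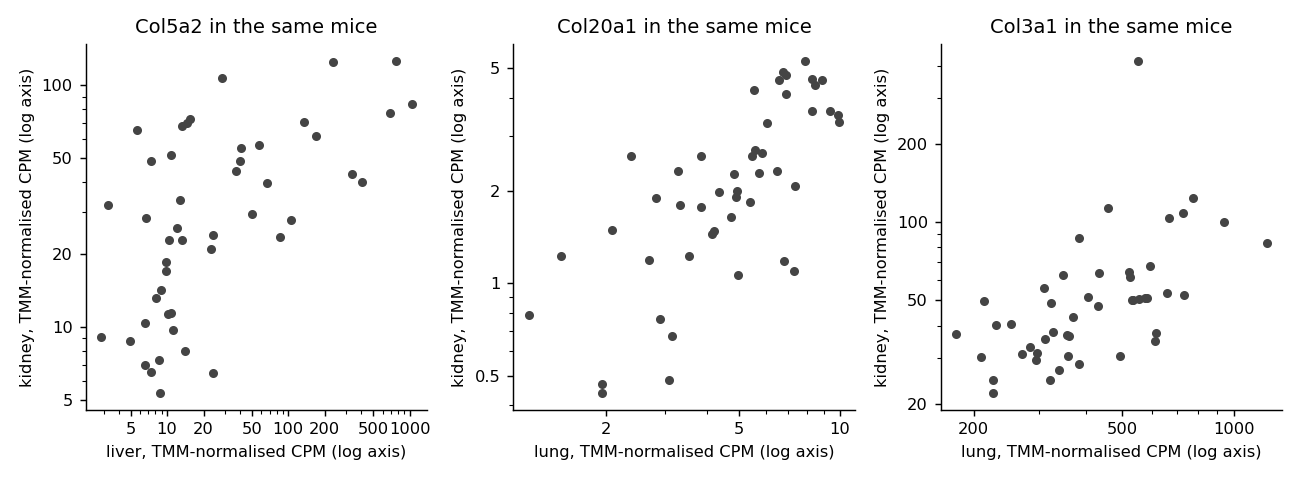
Each point is 1 of 47 mice, with the CPM of a chain in 1 organ against that in another, on log axes: Col5a2 in liver and kidney, Col20a1 in lung and kidney, and Col3a1 in lung and kidney. The points rise together, at r of 0.59, 0.68 and 0.63, and the kidney of CC020 stands far above the others for Col3a1, at 418.3 CPM.

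Chains that assemble into 1 molecule or fibre were compared across mice within each organ, with the second gene ranked by r among all genes tested there. Col4a3 and Col4a4 varied together in each organ, and Col4a4 ranked 1 among all genes for Col4a3 in liver, lung and kidney. The r was 0.76 in liver (rho = 0.75; permutation q = 0.011), 0.79 in lung (rho = 0.80; permutation q = 0.13) and 0.70 in kidney (rho = 0.69; permutation q = 0.069). For Col4a3, 0.732% of all genes were called in liver, 0.0% in lung and 0.0518% in kidney. The lung value missed the threshold because 1e-05 is the smallest permutation p that 100000 permutations can give, and 10000000 permutations give q = 0.0013. Without the 2 mice farthest from the median, r was 0.74, 0.81 and 0.65. In liver both genes also had a positive r with the defining markers of kidney and of lung, given further below. The part of carried-over tissue in the liver pair was not tested. The ratio of Col4a3 to Col4a4 in TPM had a median of 1.67 in liver, 1.69 in lung and 1.51 in kidney, and lung and kidney of a mouse differed by 0.18 ± 0.0542 on the log2 scale (permutation q = 0.0034).

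Col6a2 also ranked 1 for Col6a1 in each organ, at r of 0.66 in liver (permutation q = 0.013), 0.66 in lung (permutation q = 0.066) and 0.74 in kidney (permutation q = 0.014). For Col6a1, 0.92% of all genes were called in liver, 0.0304% in lung and 0.561% in kidney. These genes lie 85161 bases apart on chromosome 10 and on the same strand. The lung call is lost without CC032 and CC042, at r = 0.61 (permutation q = 0.26), and with Spearman's rho, at 0.57 (permutation q = 0.17). It is also lost without CC020, at r = 0.63 (permutation q = 0.13), and without CC015, at r = 0.66 (permutation q = 0.13) as over all mice. That q of 0.13 is what the smallest permutation p gives the gene ranked 1 when no other gene has a similarly small p. These losses therefore cannot show whether the call depends on CC020 or CC015. With 10000000 permutations over all mice the q of the lung pair is 0.011. The ratio of Col6a1 to Col6a2 had medians of 1.83, 1.70 and 1.86. Col6a3, the chain that joins both in the type VI molecule, was not called with Col6a1 in any organ, at 0.02, 0.27 and 0.23. It is 1 of the genes with more than 1 listed transcript.

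The type I chains varied together, at r of 0.61 in liver (permutation q = 0.0092), 0.74 in lung (permutation q = 0.00065) and 0.74 in kidney (permutation q = 0.0035) for Col1a1 with Col1a2, which ranked 6, 7 and 1 among all genes. For Col1a1, 1.75% of all genes were called in liver, 13.0% in lung and 5.4% in kidney. With Col3a1 the r was 0.60, 0.72 and 0.65, at ranks 8, 14 and 6. The level of Col1a1 was below that of Col1a2 in every library, with a median ratio in TPM of 0.229 in liver, 0.312 in lung and 0.165 in kidney, and that of Col3a1 above Col1a1 in every library, at 12.2, 5.25 and 6.49. The ratio of Col1a1 to Col1a2 differed between lung and kidney by 0.88 ± 0.111 on the log2 scale (permutation q = 3e-05), in 39 of 47 mice.

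Col4a1 and Col4a2, whose 5′ ends overlap, gave r of 0.44 in lung (permutation q = 0.10, just over the threshold) and 0.51 in kidney (permutation q = 0.096), at ranks 108 and 9, where 0.744% and 0.0777% of all genes were called for Col4a1. With 10000000 permutations the kidney value is q = 0.11 and no longer called, and in liver Col4a1 had too few counts. Col4a5 and Col4a6 gave 0.21 in lung and 0.02 in kidney and were not called, where 0.137% and 0.0% of all genes were called for Col4a5. Col5a2 with its partner chain Col5a1 gave 0.07, 0.58 and -0.14 in liver, lung and kidney, and with Col3a1 0.06, 0.78 and 0.28. These pairs were chosen after values of Col5a2 were seen. In lung both were called and Col3a1 ranked 1, where 0.698% of all genes were called for Col5a2, and in liver and kidney 0.0% were called. Col5a2 (chr1:45431166-45560127, minus strand) and Col3a1 (chr1:45368383-45406551, plus strand) are neighbours, 24614 bases apart in NCBIM37. Of 17 differences in r between organs that were tested over the pairs of the first list, by swapping organs within mice, none had a permutation p under 0.05, and the lowest q was 0.85. Without CC020, 3 pairs are called in kidney in place of 5. The pair of Col4a1 with Col4a2 goes to a permutation q of 0.22 and that of Col4a3 with Col4a4 to 0.12. For Col4a3 with Col4a4 r is 0.68 there, against 0.70 over all mice. Its q of 0.12 is what the smallest permutation p gives the gene ranked 1 when no other gene has a similarly small p. This loss therefore cannot show whether the pair of Col4a3 with Col4a4 depends on CC020.

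**Figure D5:**
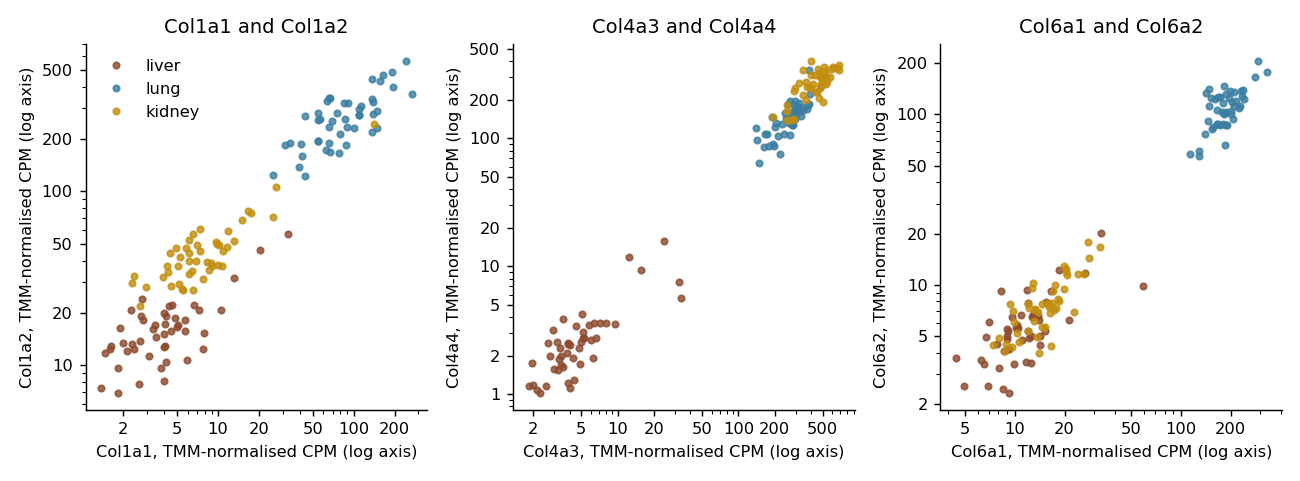
Each point is 1 library, coloured by organ, with the CPM of 2 partner chains against each other on log axes: Col1a1 and Col1a2, Col4a3 and Col4a4, and Col6a1 and Col6a2. Within each organ the points rise together, and the livers lie apart at low values of Col4a3 and Col4a4, with medians of 4.06 and 2.46 CPM.

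Since 1 mouse gave all 3 organs, levels of each chain, and of Col4a3bp, were also set against the summed defining markers of the other organs. Kidney markers stood in liver at a median of 0.147% of their kidney level and lung markers at 0.213% of their lung level, while Col4a3 in liver stood at 0.868% of its kidney and 1.49% of its lung level and Col4a4 at 0.874% and 1.66%. Among 178 such correlations, Col4a4 in liver rose with the kidney markers (r = 0.46, rho = 0.38, permutation q = 0.080; 0.36 without 2 mice) and Col4a6 in kidney fell with the lung markers (r = -0.48, rho = -0.47, permutation q = 0.080). Also in liver, but over the q threshold of 0.1, Col4a3 had r = 0.44 with the kidney markers (permutation q = 0.11) and 0.41 with the lung markers (permutation q = 0.14). For Col4a4 with the lung markers r was 0.35 (permutation q = 0.36). The liver of CC035 had the highest kidney markers and the highest Col4a4, 15.8 CPM. The part of carried-over tissue in these levels was not tested further.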

How the data were processed

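RNA of liver, lung and kidney from 47 strains was sequenced as single-end reads after ribosomal depletion. The authors quality-filtered and trimmed the reads, aligned them with STAR 2.5.3a through RSEM to strain-specific mm9 pseudo-genomes and deposited, per RefSeq gene, an expected count and a TPM value. Expected counts were all whole and were tested with limma-voom (limma 3.58.1, edgeR 4.0.16, R 4.3.3) after TMM scaling, over 12127 genes above 1 CPM in at least 30% of libraries, with tissue and strain as terms and Benjamini-Hochberg adjustment.

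Correlations used rank inverse normal values of log2 CPM (prior count 1) of genes with at least 5 counts in at least 50% of libraries, and 100000 two-sided permutations (Python 3.11.15, numpy 2.4.6, scipy 1.17.1). DESeq2 1.42.0, edgeR, other scalings, filters, pseudocounts and left-out strains were alternatives. Ratios of 2 chains had 0.01 TPM added. Floors of 3 counts cover counting error only, while the SE and 95% intervals of fold changes include the spread between mice.

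Pairing of tissues comes from the labels: tissues of 1 strain come from 1 mouse. Deviations from the tissue means had a median r of 0.167, 0.173 and 0.212 within mice for liver with lung, liver with kidney and lung with kidney, and were above 0.1 in 39, 45 and 43 of 47 pairs. On simulated data, limma-voom for liver against kidney recovered 88 of 88 tested genes changed by a log2 of 1.5 and 93 of 93 changed by 3, among 10686 genes, with 0 false calls. There all tissues had the kidney means, 1 dispersion held for all genes, strains did not differ and 100 genes were changed per size. In the real comparison 36.6% of genes were called and scaling matters, so the simulation cannot give the rate of false calls there.

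Members, lists, markers and pairs were chosen with earlier results of these data known. Members named were the chains of types I, III, IV and VI, Col2a1, Col15a1 and Col18a1, the 5 highest by TPM in each tissue, the 3 largest called changes per direction, the 3 most variable in each tissue above 5 CPM and the 5 highest correlations between tissues. Of each partner list, the 2 largest called changes per comparison were named. Other genes named, and the libraries, were chosen after their values were seen. The study's methods name sequencing batch as a covariate, but the labels do not tie libraries to batches, so batch could not be used.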

Additional observations from a re-analysis of the deposited data

How the results depend on the processing

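The totals of chains and of partner genes called between tissues, both directions together, stayed within 1.5 times under the alternatives run. Counts in the rarer direction moved further. Chains called higher in liver than in lung number 2, and 5 without the filter and 1 with total counts or TPM. Those higher in liver than in kidney go from 3 to 1 with TPM, and those higher in kidney than in lung from 4 to 2 where 50% of libraries must exceed 1 CPM. Partner genes higher in liver than in lung go from 3 to 1 with total counts or TPM and to 5 without the filter, those higher in liver than in kidney from 9 to 5 with total counts or log2(TPM + 0.1) and to 4 with log2(TPM + 1), and those higher in kidney than in lung from 3 to 1 with total counts or TPM. Without the replicate block, 27, 19 and 23 chains and 41, 31 and 36 partner genes are called in liver against lung, liver against kidney and lung against kidney. Direction changed for uncalled chains alone. With total counts, total counts without Rn45s and Lars2, log2(TPM + 1) and log2(TPM + 0.1), in this order, Col14a1 is at -0.45, -0.28, -0.55 and -0.57 for liver against lung, at -0.26, -0.16, -0.27 and -0.28 for liver against kidney and at 0.19, 0.12, 0.28 and 0.29 for lung against kidney. In the same order Col5a2 is at -0.93, -0.42, -0.79 and -0.99 for liver against kidney, and at -0.062 without the block, and Col6a5 at -0.48, -0.58, -0.36 and -0.44. Chains correlated between liver and lung number 0 with total counts, 2 with a partial correlation given depth and 2 without CC032 and CC042. Those between liver and kidney number 3 with total counts and 3 at q of at most 0.01, and those between lung and kidney 0 and 2. Called chain pairs number 2 in liver and 2 in kidney at q of at most 0.01, 3 in kidney without CC020, 7 in lung with total counts and 5 in lung given the share of Rn45s. The r of Col6a1 with Col6a3 in liver is -0.0048 given the share of Rn45s, and that of Col4a5 with Col4a6 in kidney is -0.0011 without CC032 and CC042, -0.034 given the share of Rn45s and -0.049 without CC015. The cause of these changes was not tested. Of 135 chosen values of single genes and pairs, 30 lost and 15 gained a call and 7 changed sign in at least 1 alternative. Col5a1 between liver and kidney, not called and with the other sign in 4 of 5 scalings, down to -0.65, is not among these 135. Counted over each value and each alternative, 60 lost a call, 42 gained one, 25 changed sign and 1618 kept direction and side of the threshold. Depth limits chains near 3 counts, in liver most of all.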
